A study of Mus musculus with 6 samples.

Results

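The genes *Tceal1*, *Tceal8*, *Bex1* and *Bex2* were followed in 6 *Hoxa9* mouse leukemias, 3 of them with IRX3. They are 4 of the 12 *Tceal* and *Bex* genes found among the 41128 genes of the expression table, and were matched by symbol. *Tceal8* was chosen by its higher RPKM in *Hoxa9*/*IRX3* than in *Hoxa9*/MTV leukemias, so the levels of these 4 genes in that comparison are given as a description with no test. *Tceal8* ranged from 8.90 to 14.5 RPKM (reads per kilobase of gene span, scaled to the mapped reads of each library) in the *Hoxa9*/*IRX3* mice and from 0.0358 to 0.404 RPKM in the *Hoxa9*/MTV mice. *Tceal1* and *Bex1* had at most 10 reads in any mouse and *Bex2* had none.

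*Tceal* genes encode small proteins that resemble part of transcription elongation factor A (SII), and most stand side by side on the X chromosome. *Bex* genes, named as brain expressed and X-linked, lie among them and encode small adaptor proteins. BEX1 and BEX3 are known as partners of the p75 neurotrophin receptor, BEX2 as a partner of the transcription regulator LMO2, and both families are best known from brain, where their expression is high.

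The labels give the strain as C57BL/6. By the study's methods this holds for the CD45.2+ recipients, whereas the CD45.1+ donors of the sequenced cells were of the congenic B6.SJL-Ptprca Pepcb/BoyJ strain. KIT+ bone marrow (BM) cells of young adult female donors received retroviral FLAG-tagged *Hoxa9* together with either the empty retroviral vector MTV (*Hoxa9*/MTV; mice 1.1, 1.2 and 1.4) or MYC-tagged human *IRX3* (*Hoxa9*/*IRX3*; mice 3.2, 3.3 and 3.5). After drug selection they were transplanted into lethally irradiated female CD45.2+ recipients, which were also given CD45.2+ BM cells and developed acute myeloid leukemia (AML). RNA came from thawed BM of sick mice, from CD45.1+ KIT+Gr1+ cells collected by flow sorting, with 1 library for each mouse. The retroviral vectors have no promoter limited to a lineage, and both cohorts carried *Hoxa9*. Mice were sampled when sick and not at a fixed time, and the paper reports a later onset of AML in *Hoxa9*/*IRX3* than in *Hoxa9*/MTV recipients. Age and time since transplantation therefore run with the cohort and cannot be told apart from *IRX3* here. Their part in the results was not tested.

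The steps between low RPKM values correspond to 7979246 to 9803621 reads per library, totals inferred from the table that need not equal the number of filtered alignments. Mouse *Irx3* served as a check on the cohort labels. Its level can hold reads of the mouse gene itself and those reads of the human transgene that align to it, which cannot be told apart here. It was listed at 0 in each *Hoxa9*/MTV mouse. It stood at 15.1, 0.421 and 0.148 RPKM in mice 3.2, 3.3 and 3.5. *Hoxa9* was read in both cohorts, between 174 and 363 RPKM without *IRX3* and between 154 and 242 RPKM with it. *Xist*, the RNA that silences 1 X chromosome in female cells, was present in all 6 mice. It stood at 98.5, 71.5 and 80.5 RPKM in mice 1.1, 1.2 and 1.4, and at 57.6, 66.4 and 29.8 RPKM in mice 3.2, 3.3 and 3.5. The cohorts did not overlap, with *Hoxa9*/*IRX3* lower, beside 33.7% of tested protein-coding genes without overlap in either direction. Not being protein-coding, *Xist* was tested in a limma fit of all gene types. Its log2 difference of -0.76 (SE 0.33) did not pass there (adjusted p = 0.255). In sorted bulk RNA, fewer cells of a type and less RNA per cell cannot be told apart.

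The promoters of most genes of the family share a short run of bases, shown here because it is common to expressed and silent genes. In RefSeq sequence (GRCm38.p6), the window from 250 bases before to 50 bases after the gene start was read for all 12 genes. Both strands were searched for TGACGNNNNNNNCACGTGA, that is TGACG and CACGTGA separated by 7 bases, a pattern picked after the sequences were seen. Among 27025 genes, 10 held it (0.0370%). They comprised 6 genes of the family (*Bex1*, *Bex4*, *Tceal3*, *Tceal5*, *Tceal6* and *Tceal8*), *Armcx1* and *Armcx6* from the same stretch of the X chromosome, and 2 genes elsewhere. With 9 bases in between, 6 genes held it (0.0222%), among them *Tceal1*, *Bex3* and *Armcx4*. The inner CACGTG alone stood in 8.09% of genes and CACGTGA, which contains it, in 4.29%.

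The 30 bases from the first letter of the pattern are given for the members that hold it and for the other expressed X-linked genes of the family, 5′ to 3′ on the gene's strand. Capitals mark TGACG and CACGTGA, or the nearest form of the latter in *Tceal9*, where it reads CATGTGA.

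Tceal8: TGACGcgatcctCACGTGAccagcagtcga

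Tceal1: TGACGcgctcccctCACGTGAccaggagcc

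Bex1: TGACGcaagtggCACGTGActagcccacgc

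Tceal9: TGACGtagatctCATGTGAccaggagtcga

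Bex3: TGACGcagggccctCACGTGAcccggggct

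The *Tceal8* sequence lies at chrX:136172217-136172246 on the minus strand and begins at base 6 after the RefSeq start. That of *Tceal1* lies at chrX:136707967-136707996 (plus strand) and begins 15 bases before its start, as does that of *Bex1* at chrX:136215499-136215528 (minus strand). The *Tceal9* sequence (chrX:136245076-136245105, plus strand) begins 4 bases before its start, and the *Bex3* sequence (chrX:136270266-136270295, plus strand) at base 14 after it. *Tceal9* and *Tceal7* held only a near form, in *Tceal7* with TGACA in place of TGACG. No exact form was in the *Bex2* or *Bex6* window on either strand. No near form was there on the gene's strand, the only strand searched for near forms. *Bex2* and *Bex3* nevertheless shared an identical run of 162 bases across their windows, and *Bex1* and *Bex4* one of 271 bases. The form with 9 bases in between was held by *Bex3*, with 150 to 391 reads per mouse, and by *Tceal1*, with at most 10. The form with 7 was held by *Tceal8*, with up to 477 reads, and by *Tceal5* and *Tceal6*, which were read in no mouse. Neither spacing thus went with expression alone.

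*Tceal8* (ENSMUSG00000051579; chrX:136168984-136172342, minus strand) has 3 exon blocks with 2563 exonic bases in a span of 3359 bases. In *Hoxa9*/MTV mice 1.1, 1.2 and 1.4 it stood at 0.404, 0.0358 and 0.0923 RPKM, from 12, 1 and 3 reads. In *Hoxa9*/*IRX3* mice 3.2, 3.3 and 3.5 it stood at 8.90, 14.5 and 13.4 RPKM, from 265, 477 and 358 reads. Every *Hoxa9*/*IRX3* mouse lay above every *Hoxa9*/MTV mouse, and mouse 3.2 was the lowest of its cohort.

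*Tceal8* averaged 0.177 ± 0.198 RPKM without *IRX3* and 12.2 ± 2.95 RPKM with it (SD, n = 3 each). On the log2(RPKM + 0.5) scale the difference was 4.24 (SE 0.26). This scale understates the change of a gene so low in one cohort, and the summed reads, 16 against 1100, gave a ratio of 69.2 per library read. Its exact 95% interval, 42.4 to 122, covers counting error only. Mouse 1.1 supplied 12 of the 16 *Hoxa9*/MTV reads. Without it both remaining *Hoxa9*/MTV mice were at 3 reads or fewer, so only a bound is given. Against a floor of 3 reads per library, the lower bound of the *Tceal8* fold was about 123.

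Among the 3 *Hoxa9*/*IRX3* leukemias, mouse 3.2 had the most *Irx3* reads (474) and the lowest *Tceal8* level. Mice 3.3 and 3.5 had 15 and 4 *Irx3* reads and the higher *Tceal8* levels. Reads of mouse *Irx3* do not measure the level of the human transgene, so no relation to its dose is read from these values. None of the 2631 runs of 75 bases (the read length) in annotated *Tceal8* transcripts occurs in an annotated transcript of another gene.

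*Tceal1* (ENSMUSG00000049536; chrX:136707982-136711478, plus strand), which encodes a nuclear phosphoprotein, was near the limit of these libraries. It stood at 0.0647, 0.0344 and 0.266 RPKM in mice 1.1, 1.2 and 1.4, from 2, 1 and 9 reads. In mice 3.2, 3.3 and 3.5 it stood at 0.194, 0.292 and 0.358 RPKM, from 6, 10 and 10 reads. The cohorts overlapped, since mouse 1.4 lay above mouse 3.2.

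Summed over each cohort, *Tceal1* had 12 reads against 26, a ratio of 2.18 with an exact 95% interval of 1.06 to 4.74 for counting error only. The log2(RPKM + 0.5) difference was 0.34 (SE 0.18, from the spread within cohorts). No 75-base run of *Tceal1* is shared with another gene.

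*Bex1* (ENSMUSG00000050071; chrX:136213972-136215513, minus strand), encoding an adaptor of p75 neurotrophin receptor signaling, had 0 reads in each *Hoxa9*/MTV mouse. It had 0, 1 and 7 reads in mice 3.2, 3.3 and 3.5, which gave 0, 0.0661 and 0.569 RPKM. Mouse 3.5 alone carried 7 of the 8 reads, and mouse 3.2 was at 0 like the *Hoxa9*/MTV mice. No fold is given, since 3 reads in a library correspond to 0.198 to 0.244 RPKM of this gene.

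The few *Bex1* reads are uncertain in a further way. *Bex1* overlaps *Tceal7* on the other strand by 735 bases, and whether reads were assigned by strand is not given in the sources used here. Of the 1293 75-base runs of *Bex1*, 25.99% also occur in other transcripts, mostly of *Bex4* and *Tceal7*, and the authors removed alignments of low mapping quality.

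*Bex2* (ENSMUSG00000042750; chrX:136066564-136068236, minus strand), encoding the LMO2 partner, had 0 reads in all 6 mice. A count of 0 allows up to 3 reads, or 0.183 to 0.225 RPKM depending on the library. Of its 829 75-base runs, 14.5% are shared, with *Bex3* or *Bex1*.

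**Figure D1:**
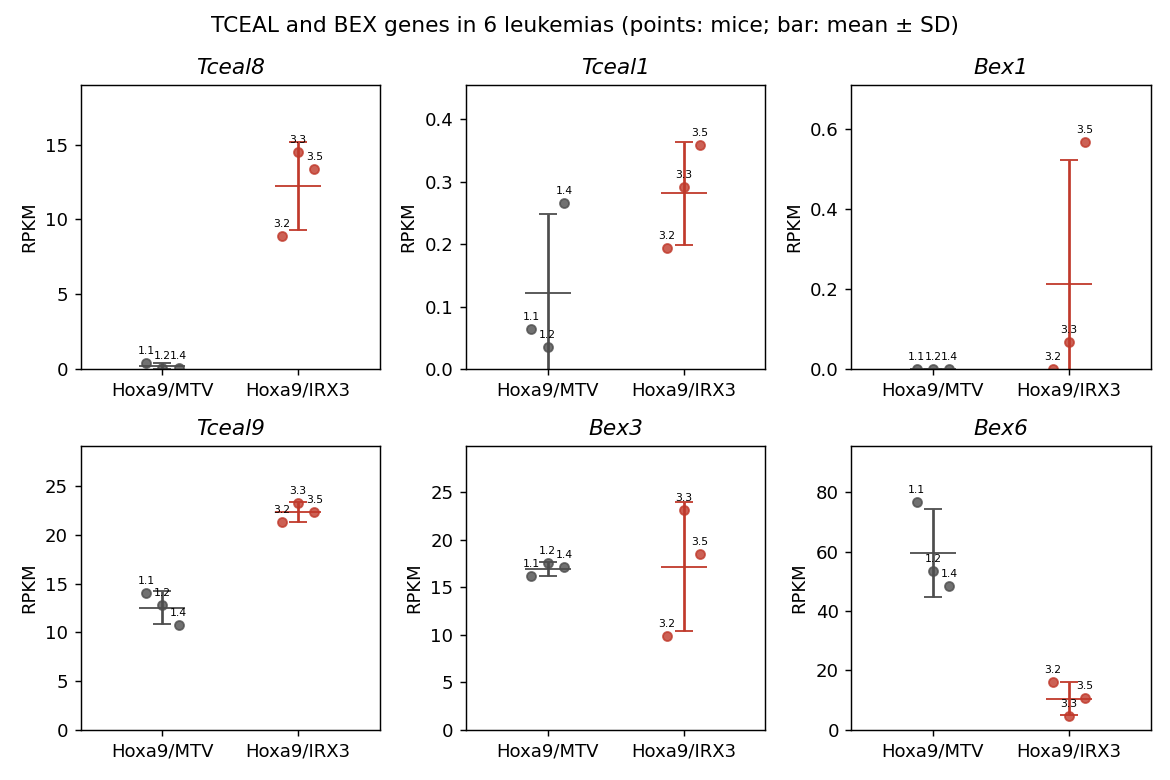
RPKM of the 6 *Tceal* and *Bex* genes named above each panel, in *Hoxa9*/MTV (grey) and *Hoxa9*/*IRX3* (red) leukemias; points are mice, labelled by number, and horizontal bars with whiskers are the mean ± SD of 3 mice, on linear axes that start at 0 and differ between panels. *Tceal8* rises from near 0 to between 8.90 and 14.5, *Tceal9* and *Bex6* separate by cohort in opposite directions, and *Bex3*, *Tceal1* and *Bex1* overlap.

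A filter of more than 0.5 RPKM in at least 1 mouse left 9522 protein-coding genes for testing. Of the 4 members, 2 passed it, *Tceal8* and *Bex1*, both only through the *Hoxa9*/*IRX3* mice, while *Tceal1* and *Bex2* did not. A gene was called at a limma adjusted p under 0.05 and a 2-fold or larger difference on the log2(RPKM + 0.5) scale. By this rule 1 of the 2 tested members, *Tceal8*, was called, against a background of 3.13% of tested genes called in either direction and 1.10% called higher. Because *Tceal8* was selected on this contrast, nothing is read from that count.

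The 8 other genes of the family were not among the chosen members, although the family list was set with earlier results of these data known. Of these, 3 were tested, *Tceal9*, *Bex3* and *Bex6*, and they went in different directions. *Tceal9* rose by less than 2-fold, *Bex6* fell, and *Bex3* did not pass the test.

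*Tceal9* (listed under its older symbol *Wbp5*; ENSMUSG00000042712; chrX:136245079-136247139, plus strand) lies 72.7 kb from the *Tceal8* start and was read in every mouse. It stood at 14.0, 12.8 and 10.7 RPKM in mice 1.1, 1.2 and 1.4 and at 21.3, 23.3 and 22.4 RPKM in mice 3.2, 3.3 and 3.5. The cohorts did not overlap. The log2 difference was 0.82 (SE 0.14; limma, adjusted p = 0.0309), with all 3 *Hoxa9*/*IRX3* mice above all 3 *Hoxa9*/MTV mice. Its adjusted p rose to 0.0955, 0.125 and 0.130 without mouse 1.1, 1.2 or 1.4, and to 0.0528 without mouse 3.5.

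*Bex3* (listed as *Ngfrap1*; ENSMUSG00000046432; chrX:136270253-136271978, plus strand), encoding a p75 neurotrophin receptor partner, stood at 16.1, 17.5 and 17.1 RPKM in mice 1.1, 1.2 and 1.4. In mice 3.2, 3.3 and 3.5 it stood at 9.81, 23.1 and 18.5 RPKM. Its 3 *Hoxa9*/*IRX3* mice lay on both sides of the *Hoxa9*/MTV range, with mouse 3.2 lowest and mouse 3.3 highest of all 6. The log2 difference was -0.06 (SE 0.30; limma, adjusted p = 0.920), and its sign turned to 0.03 when libraries were scaled by the median of ratios.

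*Bex6* (ENSMUSG00000075269; chr16:32179823-32186972, plus strand), the only gene of the list not on the X chromosome, moved the other way. It stood at 76.5, 53.6 and 48.4 RPKM in mice 1.1, 1.2 and 1.4. In mice 3.2, 3.3 and 3.5 it stood at 16.0, 4.67 and 10.7 RPKM, all below the *Hoxa9*/MTV mice. The log2 difference was -2.58 (SE 0.43; limma, adjusted p = 0.0265). Leaving out mouse 1.1, 1.2 or 1.4 raised the adjusted p to 0.109, 0.113 or 0.103, and leaving out mouse 3.5 to 0.0569.

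The remaining 5 genes gave little or nothing. *Bex4* had 0 reads in each *Hoxa9*/MTV mouse and 0, 4 and 2 reads in mice 3.2, 3.3 and 3.5, and 38.3% of its 75-base runs also occur in other transcripts. *Tceal3*, *Tceal5*, *Tceal6* and *Tceal7* had 0 reads in all 6 mice. Together with *Bex2*, 5 of the 12 genes had no read in any leukemia.

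Over the whole family 5 of 12 genes were tested, 1 was called higher (*Tceal8*) and 1 lower (*Bex6*), beside 1.10% and 2.03% of all tested genes. At an adjusted p under 0.05 with no limit on the fold, 3 of the 5 passed (*Tceal8*, *Tceal9* and *Bex6*), where 5.36% of tested genes did. The cohorts did not overlap for the same 3 genes, as for 33.7% of tested genes. The family list holds the chosen gene, so these counts are not independent of the choice.

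**Figure D2:**
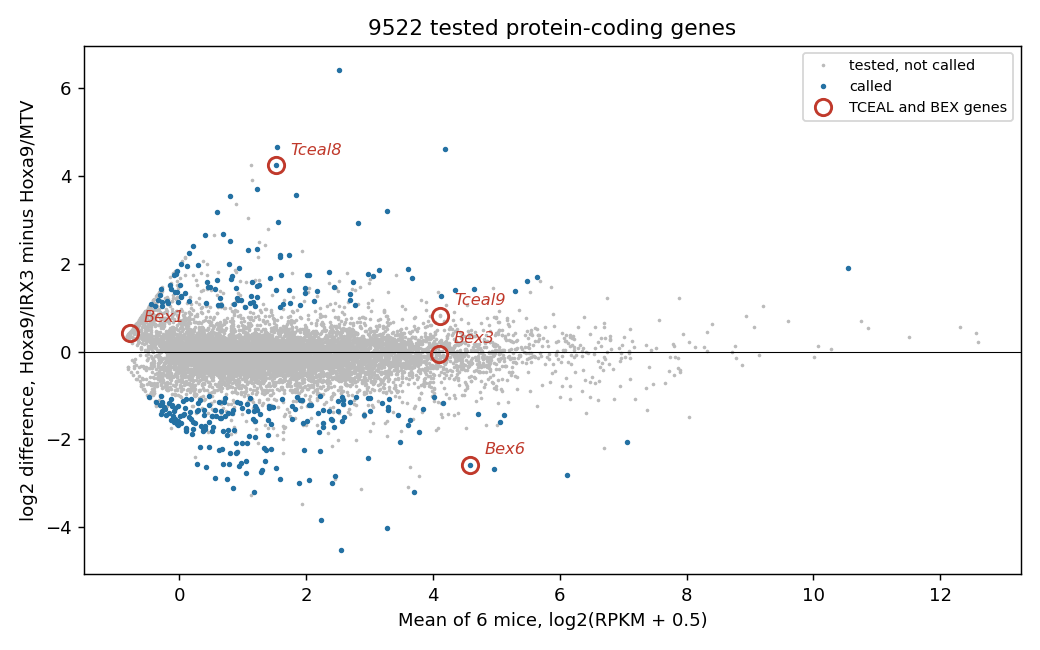
Log2 difference of *Hoxa9*/*IRX3* minus *Hoxa9*/MTV (y axis) against the mean of 6 mice (x axis, log2(RPKM + 0.5)) for 9522 tested genes; blue points are called, and red circles mark *Tceal* and *Bex* genes. *Tceal8* stands at 4.24 and *Bex6* at -2.58, while *Tceal9*, *Bex3* and *Bex1* lie among genes that were not called.

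To compare levels between genes, reads were divided by exon length, since the deposited RPKM divide by the whole span with introns. *Bex6* is left out here because its recovered reads were not whole. In *Hoxa9*/MTV leukemias the order of this per-exon RPKM was *Bex3* (29.98 ± 1.26), *Tceal9* (24.9 ± 3.32), *Tceal8* (0.232 ± 0.260) and *Tceal1* (0.152 ± 0.157; SD, n = 3 each). *Bex3* exceeded *Tceal9*, and *Tceal9* exceeded *Tceal8*, in all 3 mice, whereas *Tceal8* and *Tceal1* lay within each other's spread.

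In *Hoxa9*/*IRX3* leukemias the order on the same scale was *Tceal9* (44.4 ± 2.00), *Bex3* (30.4 ± 11.98), *Tceal8* (16.1 ± 3.87), *Tceal1* (0.351 ± 0.103), *Bex1* (0.275 ± 0.405) and *Bex4* (0.262 ± 0.246). *Tceal9* exceeded *Bex3* in all 3 mice. *Bex3* exceeded *Tceal8* in all 3 mice too, although their ranges over mice, from 17.4 to 40.99 and from 11.7 to 18.98, overlapped. The last 3 could not be ordered beyond their spread. *Tceal8* made up 0.0830% to 0.927% of the summed level of the 11 X-linked genes in *Hoxa9*/MTV mice and 16.3% to 18.2% of it in *Hoxa9*/*IRX3* mice.

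The position of *Tceal8* within the X-linked cluster raised the question of whether its neighbors moved with it. From 2 Mb before the first to 2 Mb after the last X-linked gene of the family, the table holds 68 protein-coding genes, of which 22 were tested and 25 had no read in any mouse. *Tceal8*, chosen on this contrast, was called, so its call is no finding. The 20 tested genes that are not members had log2 differences from -1.29 to 0.82 with a median of 0.04, beside a median of -0.06 over all tested genes, and 1 of them, *Tceal9*, had an adjusted p under 0.05. None of the 20 (0) was called by limma or by limma voom on the recovered reads (voom). An unadjusted p under 0.05 was reached by 3 of them, beside 24.3% of all tested genes.

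Larger differences in this stretch came from genes of the ARMCX and GPRASP family, X-linked neighbors with armadillo-like repeats, and did not pass the test. Of the 11 genes of that list 8 were tested, limma and voom called 0 (background 3.13%), and 1 had an unadjusted p under 0.05 (background 24.3%), with a median log2 difference of -0.34. *Bhlhb9* stood at 8.11, 7.78 and 6.996 RPKM in mice 1.1, 1.2 and 1.4 and at 0.431, 4.35 and 7.64 RPKM in mice 3.2, 3.3 and 3.5 (log2 difference -1.29, SE 0.74; limma, adjusted p = 0.330). *Armcx4* stood at 7.90, 4.54 and 5.45 RPKM against 1.27, 0.319 and 14.6 RPKM (log2 difference -1.18, SE 1.00; limma, adjusted p = 0.502). *Armcx2* stood at 5.90, 3.08 and 5.42 RPKM against 1.11, 0.301 and 9.50 RPKM (log2 difference -1.13, SE 0.87; limma, adjusted p = 0.461).

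For *Armcx4* and *Armcx2*, mice 3.2 and 3.3 lay below and mouse 3.5 above the *Hoxa9*/MTV range. Without mouse 3.5 both were called lower, with log2 differences of -2.39 and -2.18 (limma, adjusted p = 0.0388 and 0.0489). *Bhlhb9* was low in mouse 3.2 above all. *Tceal8* was high in all 3 of these mice, including those where the ARMCX genes were low and the one where they were high. *Armcx5*, which shares its annotated start with *Gprasp1*, differed by -0.43 (SE 0.16; limma, adjusted p = 0.164). *Zmat1* and *Rpl36a* differed by 0.45 each (limma, adjusted p = 0.213 and 0.286).

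**Figure D3:**
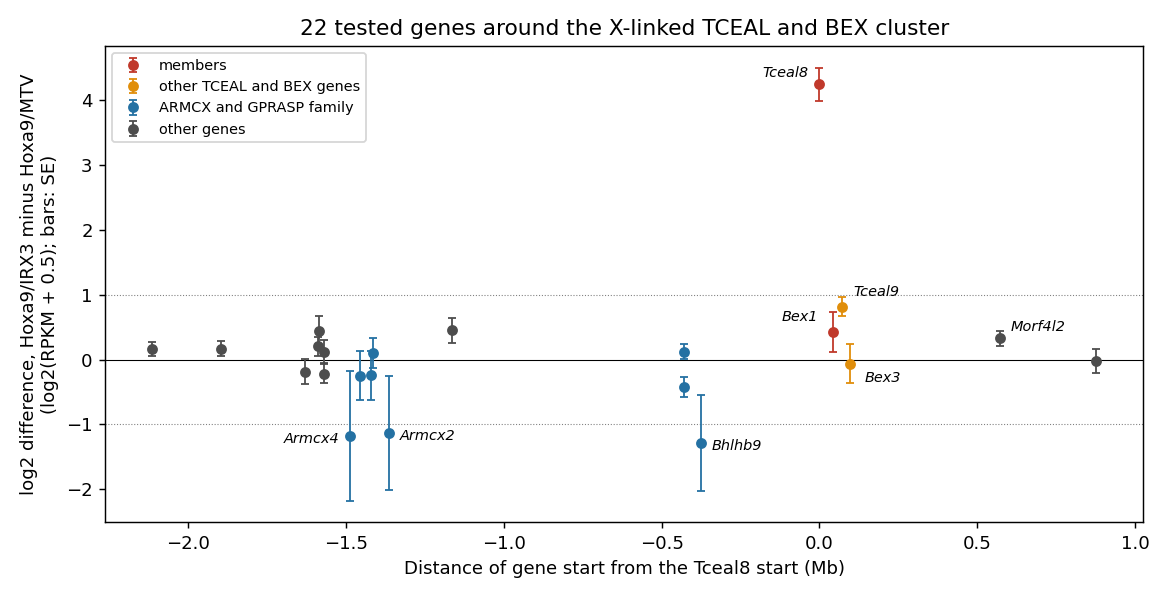
Log2 difference of *Hoxa9*/*IRX3* minus *Hoxa9*/MTV with the SE of the limma fit (y axis) for the 22 tested genes around the cluster, by the distance of each gene start from the *Tceal8* start in Mb (x axis); dotted lines mark 2-fold. *Tceal8* at 4.24 is the only gene above the upper line, and *Bhlhb9*, *Armcx4* and *Armcx2* lie below the lower line with wide errors.

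On the X chromosome as a whole, 282 genes were tested, with a median log2 difference of 0.001 beside -0.07 for the other chromosomes. Called genes numbered 6 (2.13%, beside 3.13% of all tested genes), with 3 higher, the chosen *Tceal8* among them, and 3 lower. Besides *Tceal8*, *Gspt2* (log2 difference 1.95; limma, adjusted p = 0.0143) and *Rnf128* (1.17; adjusted p = 0.0143) rose, and *Tlr13* (-2.32; adjusted p = 0.0124), *Gria3* (-2.18; adjusted p = 0.00300) and *Ddx26b* (-1.15; adjusted p = 0.0175) fell. These 5 were named because they are all the other called genes there, after their values were seen. *Gspt2* and *Rnf128* passed the filter only through the *Hoxa9*/*IRX3* mice, and *Tlr13* and *Gria3* only through the *Hoxa9*/MTV mice. Without mouse 1.1, 1.2 or 1.4 the adjusted p of *Gspt2*, *Rnf128* and *Ddx26b* lay between 0.0635 and 0.102, and without mouse 1.1 that of *Tlr13* was 0.0541. The nearest of them, *Rnf128*, starts 3391 kb from *Tceal8*.

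Genes of the pathways in which TCEAL and BEX proteins are placed were counted in the same fit. Of 28 transcription elongation genes, 26 were tested, 0 were called higher and 1 lower (3.85% in all, beside 3.13% of tested genes), with a median log2 difference of -0.03. The gene that fell was *Tcea2*, an SII family member, at 2.68 ± 0.0244 RPKM without *IRX3* and 0.929 ± 0.418 RPKM with it (SD, n = 3 each; log2 difference -1.20, limma, adjusted p = 0.0347). Its adjusted p was 0.125 to 0.144 without mouse 1.1, 1.2 or 1.4, 0.0591 with all gene types and 0.0719 without a filter on low values. *Rtf1*, a PAF1 complex subunit, and *Ssrp1*, a FACT subunit, differed by -0.84 and -0.66 (limma, adjusted p = 0.0712 and 0.129).

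Of 25 genes of p75 neurotrophin receptor signaling, the pathway of BEX1 and BEX3, 14 were tested. Neither limma nor voom called any (0 genes), and 4 had an unadjusted p under 0.05, beside 24.3% of all tested genes. Their median log2 difference was -0.19. Among the largest differences were those of the ubiquitin ligase *Traf6* (-0.87; limma, adjusted p = 0.0945) and the γ-secretase subunit *Ncstn* (-0.44; adjusted p = 0.114). The receptor gene itself, *Ngfr*, had 0 reads in all 6 mice. It is named after its values were seen.

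Of 14 genes of the LMO2 complex, to which BEX2 binds, 8 were tested, 0 were called higher and 1 lower (beside 1.10% and 2.03% of tested genes), with a median log2 difference of -0.18. The one that fell was *Gata2*, a stem and progenitor cell factor, from 4.37 ± 1.44 RPKM without *IRX3* to 0.329 ± 0.395 RPKM with it (SD, n = 3 each; log2 difference -2.62, limma, adjusted p = 0.0166). Its adjusted p was 0.0604 to 0.0892 without mouse 1.1, 1.2 or 1.4, and 0.0539 with voom. *Lmo2* and its binding partner *Ldb1* differed by -0.55 and -0.65 (limma, adjusted p = 0.275 and 0.115).

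Markers of the sorted cells and of other cells were read beside *Tceal8*. Of 10 markers of KIT+Gr1+ myeloid cells 9 were tested, and 2 were called higher, beside 1.10% of all tested genes. They were the neutrophil elastase gene *Elane* (log2 difference 1.91; limma, adjusted p = 0.0144) and *Ly6g*, which encodes part of the Gr1 antigen (1.35; adjusted p = 0.0205). *Ly6g* passed the filter only through the *Hoxa9*/*IRX3* mice. With voom, 1 gene of the list was called. The summed level of this list was 1719 to 2486 RPKM in *Hoxa9*/MTV mice and 4465 to 5283 RPKM in *Hoxa9*/*IRX3* mice. Most of this sum came from *Elane* and *Mpo*. Like *Tceal8*, the sum was higher in every *Hoxa9*/*IRX3* mouse than in every *Hoxa9*/MTV mouse. Its part in the *Tceal8* difference was not tested. Not all of its genes lay on that side of 0: *Kit*, on which the cells were sorted, differed by -0.31 (limma, adjusted p = 0.323) and *Itgam* by -0.47 (adjusted p = 0.622), both named after their values were seen. The adjusted p of *Ly6g* was 0.0817 to 0.103 without mouse 1.1, 1.2 or 1.4 and 0.0596 with voom. That of *Elane* was 0.0739 and 0.0812 without mouse 1.1 or 1.4 and 0.107 without a filter on low values. *Prtn3* differed by 0.71 (limma, adjusted p = 0.123).

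Neuron markers, read because both families are known from brain, were not tested, with summed levels of 0.0107 to 0.0488 RPKM in the *Hoxa9*/MTV mice and 0 to 0.000488 RPKM in the others. None of the 8 passed the filter, and 6 of them, among them *Rbfox3* and *Snap25*, had no read in any mouse. Endothelial markers (0 of 6 passing the filter) summed to at most 0.0137 RPKM, and erythroid markers (0 of 7) to at most 0.303 RPKM. Stroma markers (1 of 8 passing) summed to 1.05 to 1.83 RPKM in the *Hoxa9*/MTV mice and 0.170 to 0.863 RPKM in the others, and the 1 tested was *Pdgfrb* (log2 difference -1.25; limma, adjusted p = 0.0546). *Pdgfrb* stood at 0.943 to 1.74 RPKM in the former and at 0.0170, 0.473 and 0.349 RPKM in mice 3.2, 3.3 and 3.5, where *Col1a1*, *Col1a2* and *Cxcl12* supplied much of the rest.

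Among blood lineages, *Cd79b* fell in the B cell list (-2.65; limma, adjusted p = 0.0383) and *Cpa3* in the mast cell and basophil list (-1.40; adjusted p = 0.0432). Each was the only call among the 2 and 3 tested genes of its list, beside 2.03% of all tested genes called lower. *Cpa3* passed the filter only through the *Hoxa9*/MTV mice. Other genes of these lists lay on the other side of 0, with *Vpreb1* at 1.08 (limma, adjusted p = 0.272; 2.72 RPKM in mouse 3.5) and *Ms4a2* at 0.66 (adjusted p = 0.103, cohorts not overlapping). Both calls were lost in 10 of the alternatives run, including those without mouse 1.1, 1.4, 3.2 or 3.3. The B cell list summed to 6.35 to 7.30 RPKM in the *Hoxa9*/MTV mice and 0.652 to 5.03 RPKM in the others, with *Pax5* and *Ms4a1* at 0 reads. The mast cell and basophil list summed to 10.2 to 14.4 RPKM against 4.31 to 7.30 RPKM, with *Fcer1a*, *Cma1* and *Tpsab1* at 0 reads. The T and NK cell list was 22.7 to 33.0 RPKM against 14.9 to 482 RPKM, nearly all from *Nkg7*, with *Cd3d* at 0 reads. Megakaryocyte markers (2 of 6 tested) and hematopoietic stem cell markers (1 of 7) held 0 genes called by limma or voom, with 0 and 1 at an unadjusted p under 0.05, and their tested members *Gp9*, *Gp1bb* and *Meis1* had adjusted p of 0.497, 0.837 and 0.0631 (limma). The part of these lists in the *Tceal8* difference was not tested.

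The genes most like *Tceal8* over the 6 mice were found by the root mean square difference of log2(RPKM + 0.5) profiles, each centered on its own mean. The 4 nearest were *Clu* (0.62), *Pmp22* (0.73), *Gm6665* (0.73) and *Slc40a1* (0.76), and none lies on the X chromosome. *Clu*, encoding the secreted chaperone clusterin, was listed at 0 in the *Hoxa9*/MTV mice and stood at 4.14, 4.71 and 3.41 RPKM in mice 3.2, 3.3 and 3.5. Within *Hoxa9*/*IRX3*, mouse 3.3 had the highest *Clu* level, as for *Tceal8*, whereas *Pmp22*, a myelin protein gene, was highest in mouse 3.2 at 9.63 RPKM.

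**Figure D4:**
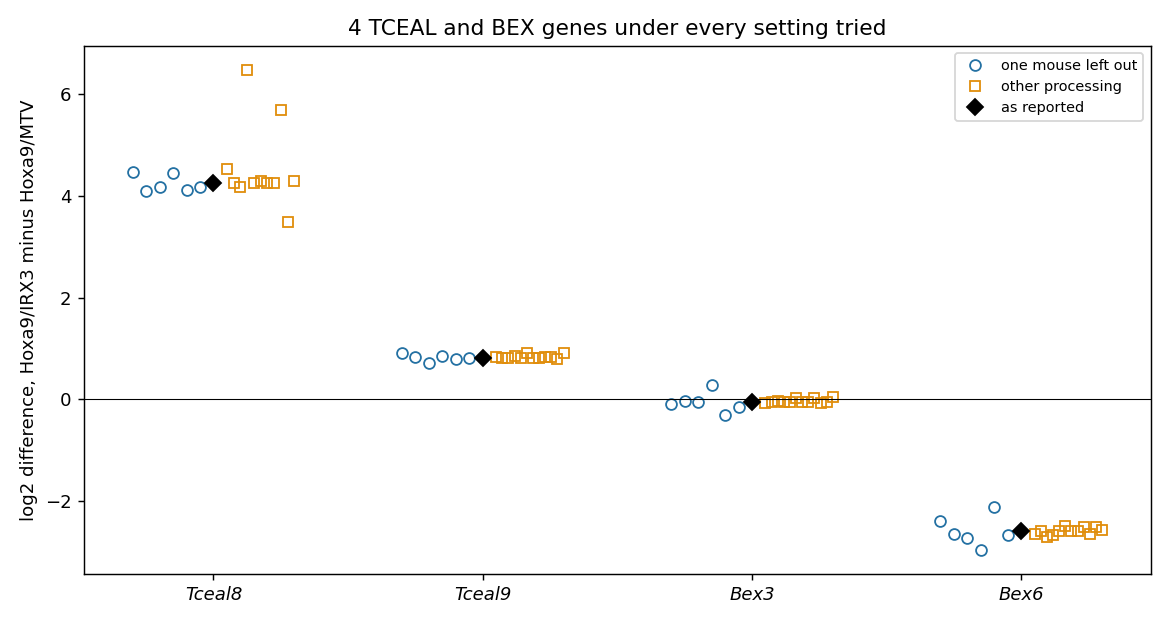
Log2 difference of *Hoxa9*/*IRX3* minus *Hoxa9*/MTV (y axis) for 4 genes (x axis) as reported (black diamonds), with 1 mouse left out (blue circles) and under other processing (orange squares). *Tceal8*, chosen for its rise in this contrast, stays between 3.48 and 6.47, so its direction is no finding. *Bex6* stays between -2.95 and -2.12 and *Tceal9* between 0.71 and 0.90, while *Bex3* lies on both sides of 0.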

How the data were processed

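RNA from sorted KIT+Gr1+ leukemia cells of 6 mice (3 *Hoxa9*/MTV, 3 *Hoxa9*/*IRX3*) was analyzed, grouped by the sample labels. The authors made strand-specific polyA libraries, sequenced paired ends of 75 bases, aligned them to GRCm38 with Bowtie2 2.2.1, filtered low-quality alignments with SAMtools 0.1.19 and deposited RPKM per gene (Ensembl v76). The deposited RPKM divide by the whole gene span.

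Reads were recovered from the steps of the values (7979246 to 9803621 per library), and were whole within 0.01 of a read in all libraries for 65.0% of tested genes. Protein-coding genes (GENCODE M21) over 0.5 RPKM in at least 1 mouse entered a limma fit (version 3.58.1, R 4.3.3, eBayes with trend) of log2(RPKM + 0.5) and adjusted by Benjamini-Hochberg over 9522 genes. The fit was also run on simulated counts, with the same dispersion for every gene and changes only in genes with many reads. Nothing is read from that run for genes near 0 reads. Counting intervals used scipy 1.17.1. SE are those of the fit, or for *Tceal1* of the cohort spread.

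The members and lists were chosen with earlier results of these data known. Genes named were the members, the family, up to 6 neighbors and 3 genes per list by largest difference, the label checks and the nearest profiles; a gene that these rules name is not reported here. No mouse number is shared between cohorts. Alternatives changed the pseudocount, filter, gene types, scaling, variance model, length and call rule, or left out a mouse. Protein sequences were not used here. Nothing in the sources used here says that the mice came from separate transductions, so p-values measure the spread between mice.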

Additional observations from a re-analysis of the deposited data

How the results depend on the processing

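*Tceal8* kept its direction under every setting that gave it a value. Since *Tceal8* was chosen for its rise in this contrast, nothing is read from that. Its log2 difference of 4.24 became 5.68 and 3.48 with a pseudocount of 0.1 or 1 RPKM, and 6.47 in a limma voom fit on recovered reads. The other settings moved it by less than the spread between mice, and without single mice it ranged from 4.09 to 4.47. *Tceal9* kept its direction and lost its adjusted p under 0.05 with all gene types (0.82; adjusted p = 0.0509), with array weights (0.80; adjusted p = 0.0575) and without mouse 1.1, 1.2, 1.4 or 3.5, but not without 3.2 or 3.3 (0.71 to 0.90 over all 6). *Bex6* lost it without a filter on low values (-2.58; adjusted p = 0.0588) and without mouse 1.1, 1.2, 1.4 or 3.5, but not without 3.2 or 3.3 (-2.95 to -2.12 over all 6). The difference of *Bex3* changed sign with median-of-ratios scaling (0.0256), quantile normalization (0.0408), and the ratio of mean RPKM (0.0207), and without single mice ranged from -0.31 to 0.29.

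Called genes numbered 298 in all, 175 without a filter, 552 per kilobase of exon (an alternative chosen after seeing the data), 664 at an unadjusted p under 0.05 with a 2-fold ratio of mean RPKM, and 61 to 409 without single mice. The 6 X-linked calls became 13 with a pseudocount of 0.1 RPKM, 16 with voom, 19 per kilobase of exon, 22 at the unadjusted p, and 2 to 13 without single mice. Called genes within 2 Mb numbered 1 to 3, and family calls 1 to 2, without single mice, and 1 family gene was called without a filter. The causes were not tested. With 3 mice per cohort and 0 to 10 reads, no setting gives a dependable level for *Tceal1*, *Bex1* or *Bex2*.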
